A study of Homo sapiens with 21 samples.

Results

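Gene expression in HEY cells 24 h after transfection with a control miRNA was compared with that in untransfected HEY cells at 0 h. The comparison rests on 6 of the 21 arrays of the series, 3 in each group, and the members were chosen by their sample titles. HEY is an established human ovarian cancer cell line, grown in RPMI-1640 medium with serum and an antibiotic mixture. The untransfected cells received nothing. The control cells received a synthetic negative control miRNA (Ambion) with the lipid reagent Lipofectamine 2000, given while they were growing exponentially. The titles of their arrays say only synthetic miRNA, which was taken to be the negative control that the treatment protocol names. No array of untransfected cells or of cells given lipid alone at 24 h was analysed here, so the miRNA, the lipid and the day of culture cannot be told apart. The series also has control cells at 48 and 144 h, and mir-429 was given in place of the control in 3 more groups, at 24, 48 and 144 h. All arrays are of 1 cell line, so the values describe that line.

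Cationic lipid reagents carry small RNAs into cells through the endosomes, and a duplex that reaches the cytoplasm is loaded into Argonaute proteins. Foreign lipid and RNA can each be sensed by the cell, the first as a disturbance of membranes and redox balance and the second by pattern recognition receptors that start NF-kB and interferon signalling. Cells that grow for a day in the same medium also change their density, their supply of serum lipids and growth factors and the share of cells in each phase of the cycle.

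Values are RMA levels on the log2 scale. A gene was represented by its brightest probe set, and levels are compared between arrays, never between genes. Where a gene is named without a word on its other probe sets, they need not move the same way. Tests used limma over 12879 genes with Benjamini-Hochberg adjustment and a threshold of 0.05. A gene is called higher or lower where its adjusted p is below that. The replicates are labelled biological, but how their cultures were kept apart is not stated, so the p-values measure the spread between arrays. That spread, and with it each SE, was pooled within the 7 groups over all 21 arrays, not over the 6 compared alone. In bulk RNA, fewer cells with a transcript and less of it per cell cannot be told apart.

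The arrays were not equal in the 3' minus 5' signal of ACTB, which can differ with RNA quality or amplification. The signal of the ACTB control transcript at its 3' end minus that at its 5' end was 6.89, 6.25 and 7.39 in the control arrays at 24 h. The same signal was 5.93, 4.92 and 4.70 in the untransfected arrays, so the groups did not overlap (two-sided exact permutation test, p = 0.1, which is the lowest value possible with 3 arrays a group). For GAPDH the groups overlapped, with a difference of 0.45 (exact permutation p = 0.3). Control replicate 2 stood apart from the others of its group: the SD of its difference from them over genes was 0.39 and 0.45, against 0.24 between replicates 1 and 3 and 0.17 to 0.25 among the untransfected arrays. How far RNA quality or amplification accounts for any change was not tested. The 3' minus 5' signal, as the mean of GAPDH and ACTB, was also entered in the fit as a covariate.

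The arrays showed some markers of an ovarian carcinoma and lacked others. PAX8, a transcription factor of Müllerian epithelium, lay between 10.72 and 11.36, and WT1 between 8.83 and 9.55. Of 12 ovarian tumour markers 6 were above the array median on all 6 arrays and 4 were below it on all 6, namely MUC16, EPCAM, CDH1 and CLDN4. Of 10 leukocyte markers 8 were below the array median on all 6 arrays, PTPRC and CD3E included, and LCP1 was above it on all of them. The log2 of the summed leukocyte signal was 6.44 to 6.55 in untransfected and 6.65 to 7.05 in control arrays. Of 12 endothelial markers 5 were above the median on all arrays, with TIE1 at 9.48 to 9.95 and ROBO4 at 9.80 to 10.37, while VWF, TEK, EMCN and ERG were below it on all. The summed endothelial signal was 11.53 to 11.67 in untransfected and 11.10 to 11.24 in control arrays. For 10 fibroblast markers the sums were 11.97 to 12.21 and 11.27 to 11.42, with PDGFRA, DCN, LUM, COL1A2 and COL3A1 below the median throughout. PDPN, at 10.90 to 11.87, COL1A1, at 8.52 to 9.25, FAP, at 6.40 to 8.33, and PDGFRB were above it on all 6 arrays.

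A day after transfection a large share of the measured transcriptome differed from that of untransfected cells. Of 12879 genes tested 4897 were called (38.0%), 2352 of them higher (18.3%) and 2545 lower (19.8%). Most changes were small: the median size among called genes was 0.59 on the log2 scale, and the median of all genes was 0.04. At least a 2-fold difference was found for 168 genes called higher and 437 called lower. These counts take levels below the array median as they stand, although 185 called genes had a group mean below it and their changes are only bounds. The values of the groups did not overlap in 6485 genes (50.4%), of which 4532 were also called. With the 3' minus 5' signal in the fit 2118 genes were called, 988 higher and 1130 lower. In that fit the median change of the genes first called lower went from -0.65 to -0.55 with a median SE from 0.15 to 0.19. For those first called higher it went from 0.55 to 0.46 with a median SE from 0.13 to 0.17. A test against a change of 1.2-fold rather than 0 called 764 higher and 1060 lower.

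**Figure D1:**
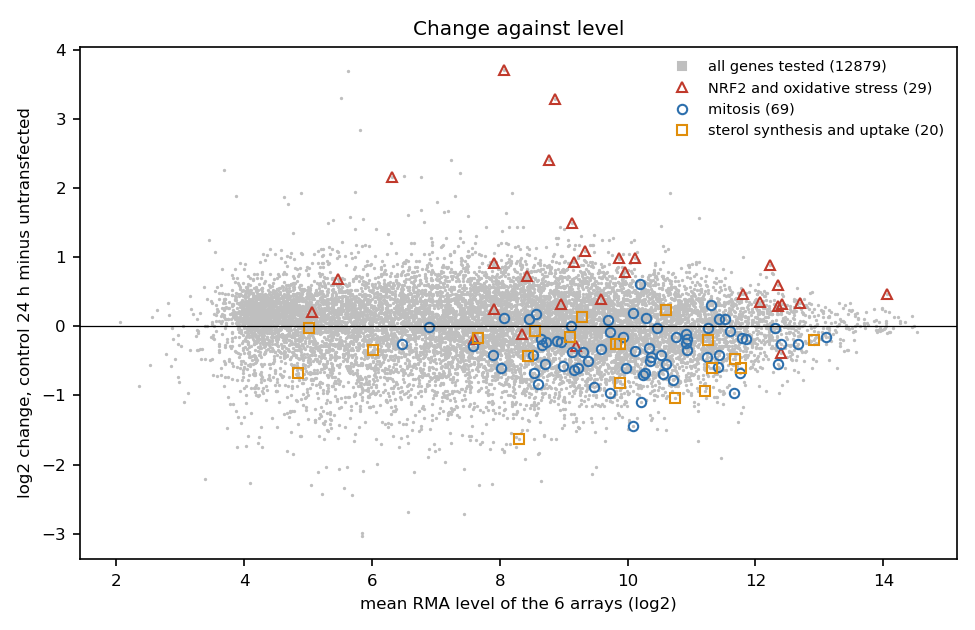
Log2 change, control at 24 h minus untransfected, against the mean RMA level of the 6 arrays for each of 12879 genes tested (grey points), with the tested members of 3 gene lists marked by shape. The 29 genes of the NRF2 list lie mostly above 0, with a median of 0.59, while the 69 mitosis and 20 sterol genes lie mostly below it, with medians of -0.32 and -0.30.

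The largest rises were led by HMOX1, the inducible haem oxygenase, which breaks haem down. Its level was 6.42, 6.26 and 5.96 in the untransfected arrays and 9.64, 9.89 and 10.19 in the control arrays at 24 h. Every control array was thus far above every untransfected one, a rise of 3.70 ± 0.23 (SE) on the log2 scale or 13.0-fold (adjusted p = 1.31e-08). AKR1C1, an aldo-keto reductase that detoxifies reactive carbonyls, was at 7.27, 7.25 and 7.16 before and 10.46, 10.35 and 10.73 after. Arrays within each group lay close together, and the rise was 3.29 ± 0.11 (adjusted p = 1.59e-12). AKR1C2, a close relative, rose by 2.40 ± 0.22, but their transcripts are nearly identical and the probe sets may share signal. OSGIN1, an oxidative stress response gene, went from 5.48, 5.09 and 5.14 to 7.24, 7.33 and 7.60, a rise of 2.16 ± 0.22.

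Signalling and matrix genes were also among the 12 largest rises. TNIP3, an inhibitor of NF-kB signalling that binds A20, was at 4.55, 4.27 and 4.35 before and at 7.45, 6.87 and 7.39 after, a rise of 2.84 ± 0.34. TRIM16, a ubiquitin ligase linked to the handling of damaged endosomes and lysosomes, went from 5.94, 6.17 and 5.99 to 8.35, 8.32 and 8.67. The groups of both genes were well separated, and TRIM16 rose by 2.41 ± 0.22 (adjusted p = 6.57e-07). GPC1, a cell surface heparan sulfate proteoglycan, rose by 2.21 ± 0.16. The noncoding transcripts NMRAL2P, a pseudogene, and LINC00520 rose by 2.17 ± 0.36 and 2.16 ± 0.24. Another 3 genes were below the array median in untransfected cells, so their changes are bounds computed with those values raised to the median. MMP3, the metalloproteinase stromelysin, rose by at least 2.90, SPANXB1 by at least 3.19, and ENPP2, which makes lysophosphatidic acid outside the cell, by at least 0.56. SPANXB1 belongs to a family of near-identical copies, so its signal may come from several of them.

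The largest falls included regulators of lipid and innate signalling. LMBR1 fell furthest on its brightest probe set, from 7.53, 7.43 and 7.09 to 4.17, 5.33 and 3.47, where it had dropped by 3.03 ± 0.36 (adjusted p = 8.42e-06). Its 6 bright probe sets disagreed, 4 falling and the highest change being 0.30. In control replicates 1 and 3 LMBR1 was also below the array medians of 4.29 and 4.28. The size of its fall is therefore not well measured. ABCA1, the transporter that exports cholesterol to apolipoproteins, was at 8.64, 8.81 and 8.94 before and at 6.17, 6.65 and 5.42 after. It fell by 2.72 ± 0.28 with both bright probe sets in the same direction, and the lowest array was control replicate 3. SIRPB1, a signal-regulatory receptor, went from 7.25, 7.39 and 7.38 to 4.52, 4.27 and 4.28, and its arrays did not overlap. PELI2, a ubiquitin ligase of Toll-like receptor signalling, fell by 2.68 ± 0.25.

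CDH5, the endothelial cadherin that ovarian lines can also express, was at 9.68, 9.75 and 9.87 before and at 7.43, 7.70 and 7.45 after. This was a fall of 2.24 ± 0.13 (adjusted p = 6.38e-09), and 2 of the 8 tested endothelial markers were called lower (19.8% of all genes). The other was the adhesion molecule ESAM, which fell to below the array median, by at least 0.54 (adjusted p = 0.00638). TIE1 changed by 0.10 and ROBO4 by -0.17 without being called. CAVIN2, a caveola coat protein, fell by 2.44 ± 0.24, and TNFSF15, a tumour necrosis factor family ligand, by 2.34 ± 0.19. DHRS3, which reduces retinaldehyde, fell by 2.30 ± 0.18, and RALGPS2, an exchange factor for Ral GTPases, by 2.28 ± 0.24. In 3 genes the control arrays at 24 h were below the array median, which leaves bounds. HSD17B2, which inactivates estradiol and testosterone, fell by at least 2.16, the noncoding OLMALINC by at least 1.93 and the choline transporter-like SLC44A5 by at least 0.97.

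**Figure D2:**
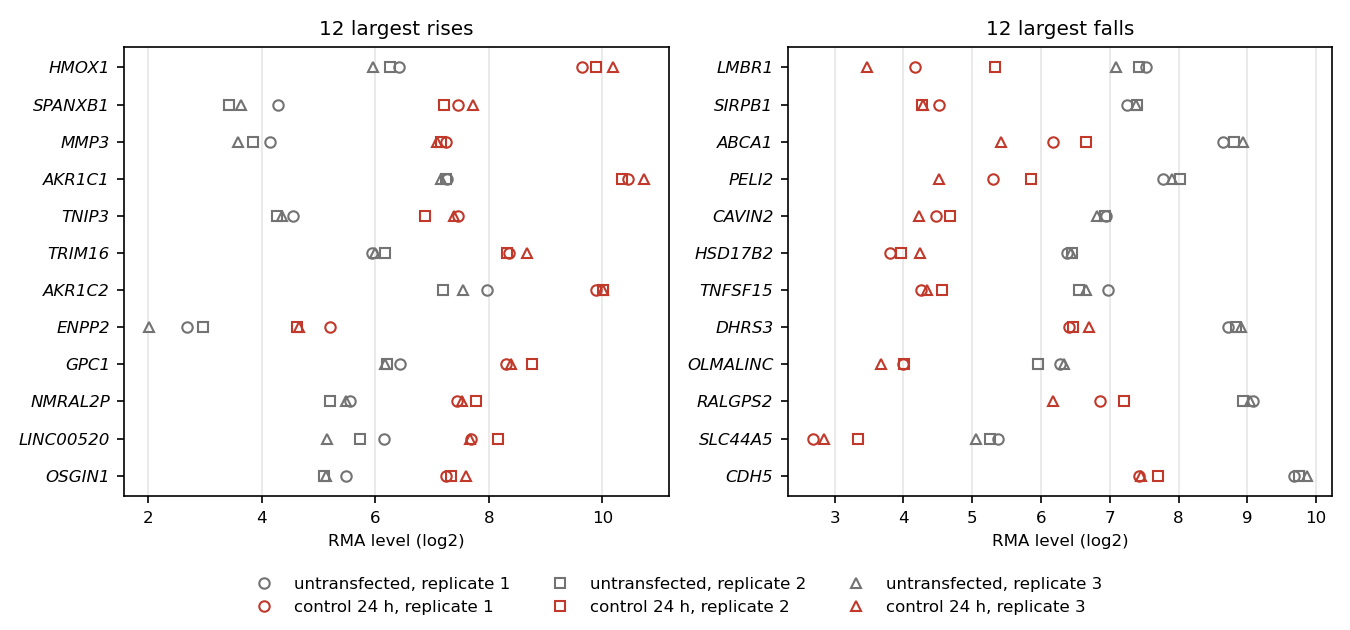
RMA level (log2) of the 12 largest rises and 12 largest falls in each of the 3 untransfected arrays (grey) and the 3 control arrays at 24 h (red), with the replicate shown by the shape. The groups do not overlap in any of these genes, by the rule that chose them, and control replicate 3 is the lowest of its group in LMBR1, ABCA1, PELI2 and RALGPS2.

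Genes of the oxidative stress response driven by NRF2 rose together. NRF2 (gene NFE2L2) is a transcription factor that is degraded in resting cells through KEAP1 and is released by electrophiles and oxidants. Of 29 tested members 23 were higher and 0 lower (79.3% called, against 38.0% of all genes), with a median change of 0.59. The promoters of GCLM, which encodes a subunit of the enzyme that starts glutathione synthesis, and ME1, which makes NADPH, are shown because both hold the letters of an antioxidant response element, TGACNNNGC on either strand. They are RefSeq windows of GRCh38.p14 from 250 bases before to 50 after the start site, written in the direction of transcription, and the capitals mark the match.
GCLM (chr1:93909381-93909680, minus strand): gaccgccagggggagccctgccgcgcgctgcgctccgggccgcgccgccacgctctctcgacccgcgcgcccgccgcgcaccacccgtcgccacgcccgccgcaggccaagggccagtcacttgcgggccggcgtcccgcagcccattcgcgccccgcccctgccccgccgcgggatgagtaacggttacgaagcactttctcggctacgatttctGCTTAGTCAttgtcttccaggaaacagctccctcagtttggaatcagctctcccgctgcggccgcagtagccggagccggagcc
ME1 (chr6:83431002-83431301, minus strand): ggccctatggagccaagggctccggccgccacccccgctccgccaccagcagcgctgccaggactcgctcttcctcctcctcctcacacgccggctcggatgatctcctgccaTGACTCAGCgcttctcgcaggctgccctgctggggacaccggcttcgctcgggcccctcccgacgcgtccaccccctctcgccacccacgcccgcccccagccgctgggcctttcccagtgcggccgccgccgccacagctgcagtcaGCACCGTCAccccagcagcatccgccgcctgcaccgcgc
The match in GCLM lies at -34 to -26 from the start site. Those in ME1 lie at -137 to -129 and at 12 to 20. Of 22 tested list members with a window 5 held it (22.7%), against 15.2% of 10441 tested genes and 13.6% of 27305 genes with a window. Of those 5 members 4 were higher with a median of 0.72, and of the other 17 members 14 were higher with a median of 0.46. A match is a description of the letters and not of binding.

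SRXN1, which repairs oxidised peroxiredoxins, was at 8.43, 8.36 and 8.36 before and at 9.76, 9.89 and 9.97 after. The groups were far apart, with a rise of 1.49 ± 0.11 (adjusted p = 6.05e-08). NQO1, a quinone reductase, rose from 11.76, 11.85 and 11.74 to 12.73, 12.65 and 12.64, by 0.89 ± 0.08. GCLM, chosen after its values were seen, rose from 8.86, 8.61 and 8.62 to 9.72, 9.79 and 9.37, by 0.93 ± 0.14. ME1 rose by 0.78 ± 0.09, and SLC7A11, which imports cystine for glutathione, by 0.98 ± 0.14. The transcript of NFE2L2 itself changed by -0.11 and was not called. With the 3' minus 5' signal in the fit 19 members were higher and 0 lower with the same median of 0.59, and leaving out 1 array gave 18 to 21 higher. Without control replicate 2 there were 2 members lower.

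Lysosomal and proteasomal genes also leaned upward. Of 43 lysosome and autophagy genes 16 were higher and 4 lower (18.3% and 19.8% of all genes), with a median of 0.14, and under the covariate 11 were higher and 1 lower. CTSC, a cathepsin that activates serine proteases, was at 9.84, 9.82 and 9.72 before and at 11.23, 10.96 and 11.54 after. This was a rise of 1.45 ± 0.11, with 3 of its 4 bright probe sets in that direction. NEU1, the lysosomal sialidase, rose by 1.21 ± 0.16, and the proton pump subunits ATP6AP1 and ATP6V1H by 0.78 ± 0.12 and 0.84 ± 0.11. For ATP6V1H the mean over probe sets was 0.03 and not called. SQSTM1, the autophagy receptor p62, rose from 10.35, 10.37 and 10.26 to 11.73, 11.79 and 12.15, by 1.56 ± 0.13, with 3 of its 5 bright probe sets in that direction. Of 32 proteasome genes 17 were higher and 0 lower, with a median of 0.28. Examples are the core subunits PSMB6 and PSMB2, with rises of 0.79 ± 0.13 and 0.44 ± 0.08, and the regulatory PSMD8, with 0.69 ± 0.11. The core subunit PSMA5 was higher by 0.67 ± 0.10 on its brightest probe set and changed by -0.01 over the mean of its probe sets. Under the covariate for the 3' minus 5' signal 10 proteasome genes were higher.

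Among genes of the stress response to amino acid shortage more were called higher than lower. Of 36 genes of the integrated stress response, in which ATF4 raises amino acid transport and synthesis, 13 were higher and 3 lower, with a median of 0.20. The share called was 44.4%, against 38.0% of all genes. SESN2, a leucine-binding inhibitor of mTORC1, went from 8.45, 8.12 and 8.09 to 9.53, 9.74 and 9.69, a rise of 1.44 ± 0.19 (adjusted p = 2.75e-05). SLC3A2, the partner of SLC7A11 in the cystine transporter, rose by 1.22 ± 0.25, WARS1, the tryptophanyl-tRNA synthetase, by 0.74 ± 0.11 and ASNS, asparagine synthetase, by 0.69 ± 0.11. Of these 36 genes 6 were higher under that covariate. Of 30 members with a promoter window 0 held the amino acid response letters TGATGNAAT, against 0.508% of tested genes. Over the mean of probe sets ASNS was not called (0.38, adjusted p = 0.0544).

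Of 27 unfolded protein response genes 7 were higher and 3 lower, a share of members called near that of all genes. CRELD2 and SDF2L1, both of the endoplasmic reticulum, rose by 0.81 ± 0.15 and 0.80 ± 0.15. HSPA13, a chaperone of the same compartment, fell by 0.97 ± 0.11 on 1 of its 2 bright probe sets, while the other changed by 0.38. The stress sensor EIF2AK3 fell by 0.60 ± 0.14. EIF2AK3 was not called with the 3' minus 5' signal in the fit (adjusted p = 0.0783), when 4 members were higher. Without untransfected replicate 1 or 3 there were also 4 higher. CALR, a calcium-binding chaperone, was higher by 0.43 ± 0.11 but changed by -0.13 over the mean of its probe sets. Among 18 heat shock genes 4 were higher and 3 lower, and the 38.9% called was near the 38.0% of all genes. The co-chaperone DNAJA1 rose by 0.53 ± 0.09 and the chaperone HSP90AA1 fell by 0.37 ± 0.09. Of 9 metallothionein genes 3 were higher and 0 lower, or 33.3% called against 38.0% of all genes. The metal-binding MT1E rose by 0.38 ± 0.09, and the zinc exporter SLC30A1 by 0.50 ± 0.15, with 0.52 ± 0.20 under the covariate, which was not called (adjusted p = 0.0805). Under the covariate 1 metallothionein gene was higher, and 2 heat shock genes were higher and 1 lower.

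Inflammatory genes of the NF-kB pathway changed in both directions, with more of them higher. NF-kB dimers are held in the cytoplasm by inhibitors such as NFKBIA and NFKBIE, which are themselves targets and close a feedback loop. Of 32 tested genes 15 were higher and 6 lower, or 65.6% called against 38.0% of all genes (18.3% higher and 19.8% lower). Their median was 0.14. The promoters of the chemokine CXCL1 and of NFKBIA are shown because each holds an NF-kB element on either strand, marked in capitals. The forms searched were GGAATTTCC and a pair of longer forms. The capitals in both promoters are the same longer form, which reads on the opposite strand in NFKBIA.
CXCL1 (chr4:73869143-73869442, plus strand): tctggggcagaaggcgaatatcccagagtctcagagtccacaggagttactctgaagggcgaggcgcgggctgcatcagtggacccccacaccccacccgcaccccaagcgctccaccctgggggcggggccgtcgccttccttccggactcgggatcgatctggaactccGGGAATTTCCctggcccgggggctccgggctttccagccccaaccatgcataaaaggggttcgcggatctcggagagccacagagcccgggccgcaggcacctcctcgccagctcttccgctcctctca
NFKBIA (chr14:35404700-35404999, minus strand): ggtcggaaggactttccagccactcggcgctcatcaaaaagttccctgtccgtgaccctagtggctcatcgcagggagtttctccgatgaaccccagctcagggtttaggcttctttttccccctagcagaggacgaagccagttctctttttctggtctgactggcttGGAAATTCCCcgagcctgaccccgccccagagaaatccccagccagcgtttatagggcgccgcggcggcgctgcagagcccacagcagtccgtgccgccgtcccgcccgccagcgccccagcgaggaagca
The match lies at -79 to -70 in CXCL1 and at -81 to -72 in NFKBIA. Of 27 tested list members with a window 10 held one (37.0%), against 0.603% of tested genes with a window. Of these 10 members 6 were higher and 0 lower with a median of 0.55. Of the 17 members without one 6 were higher and 6 lower with a median of 0.04. Over all 63 tested genes that held one 19 were higher and 11 lower, with a median of 0.08. The list was written from genes of this pathway, so the share of members with the element is no separate result.

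CXCL1, which attracts neutrophils, was at 9.50, 9.67 and 9.66 before and at 10.74, 10.69 and 10.62 after, a rise of 1.08 ± 0.12 (adjusted p = 5.23e-06). NFKBIE went from 7.25, 6.79 and 6.87 to 8.27, 8.18 and 8.39, a rise of 1.31 ± 0.16. NFKBIA, also chosen after its values were seen, went from 7.59, 7.62 and 7.59 to 8.42, 8.50 and 8.98, a rise of 1.03 ± 0.14. In each of these genes all 3 control arrays were above all untransfected ones. PTX3, a soluble pattern recognition protein, rose by 0.96 ± 0.11 and IL7R, an interleukin receptor chain, by 0.67 ± 0.08. The cytokine IL1B fell from 9.27, 9.30 and 9.47 to 7.29, 7.53 and 7.46. It fell by 1.92 ± 0.13 (adjusted p = 2.38e-08), with both bright probe sets in that direction. Under the covariate 3 members were lower and the median was 0.42. Without untransfected replicate 3 there were also 3 lower.

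Interferon-stimulated genes showed no common direction. Of 42 tested 11 were higher and 8 lower, or 45.2% called against 38.0% of all genes (18.3% higher and 19.8% lower). Their median was 0.04, the same as that of all genes. IFI44 was at 4.66, 4.60 and 4.60 before and at 5.95, 6.48 and 6.04 after, a rise of 1.54 ± 0.29, and the nuclear body protein SP110 rose by 0.98 ± 0.16. PARP12, an ADP-ribosyltransferase, and TRIM21, a cytosolic antibody receptor, both rose by 0.72 ± 0.13. DTX3L, a ubiquitin ligase, fell from 9.34, 9.67 and 9.77 to 8.42, 8.55 and 8.23, by 1.19 ± 0.12 (adjusted p = 1.63e-06). Under the 3' minus 5' covariate 6 were higher and 2 lower. Leaving out untransfected replicate 2 gave 7 higher and 4 lower, and leaving out untransfected replicate 3 gave 6 higher. Without control replicate 1 there were 4 lower, and without control replicate 3 there were 5.

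Of 20 genes that sense nucleic acids 6 were higher and 0 lower, with a median of 0.11, and the 30.0% called was below the 38.0% of all genes. MYD88, an adaptor of Toll-like receptors, rose from 8.38, 8.06 and 8.12 to 9.19, 8.77 and 9.26, by 0.89 ± 0.14. IKBKE, a kinase that activates interferon regulatory factors, rose by 0.82 ± 0.21, and CGAS, the cytosolic DNA sensor, by 0.60 ± 0.18. The RNA helicase DHX58 was below the array median before and rose by at least 0.65, and SAMHD1, a dNTP hydrolase, rose by 0.39 ± 0.13. MYD88 was the only one of these 5 still called with the 3' minus 5' signal in the fit, when 1 member of the list was higher. In that fit CGAS changed by 0.58 ± 0.24 and SAMHD1 by 0.36 ± 0.18, while IKBKE changed by 0.49 ± 0.25. Leaving out untransfected replicate 2 or control replicate 3 gave 3 members higher in each case.

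Genes of sterol synthesis and uptake fell. Their shared regulator SREBP2 is held inactive when the endoplasmic reticulum is rich in cholesterol. Of 20 tested genes 0 were higher and 11 lower (19.8% of all genes were lower), with a median of -0.30. STARD4, a cholesterol carrier, was at 9.06, 9.10 and 9.18 before and at 7.41, 7.81 and 7.22 after, a fall of 1.63 ± 0.18 (adjusted p = 3.58e-06). INSIG1, which retains SREBP proteins in the endoplasmic reticulum, went from 11.18, 11.28 and 11.31 to 10.40, 10.11 and 10.15, a fall of 1.04 ± 0.13. The synthesis enzymes SQLE, MSMO1 and IDI1 fell by 0.82 ± 0.14, 0.60 ± 0.11 and 0.60 ± 0.10. For IDI1 the mean over its probe sets was -0.07 and not called. The covariate left 6 members lower and a median of -0.31. Of 18 members with a promoter window 1 held the sterol response letters TCACNCCAC (5.56%), against 1.12% of tested genes. That member was not called, and of the other 17 members 10 were lower.

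Of 15 fatty acid synthesis genes 1 was higher and 4 were lower, with a median of -0.22, and the 33.3% called was below the 38.0% of all genes. FASN, the fatty acid synthase, went from 7.35, 7.46 and 7.65 to 5.77, 6.23 and 5.94, a fall of 1.51 ± 0.23, and its other bright probe set changed by 0.06. SCD, the stearoyl-CoA desaturase, fell from 12.86, 12.88 and 12.82 to 11.91, 12.22 and 11.56, by 0.96 ± 0.16, with all 4 bright probe sets lower. ACLY, ATP citrate lyase, was lower by 0.72 ± 0.16, a call lost over the mean of probe sets (-0.10), and ME1 was the member that rose. Of 16 genes of lipid efflux and storage 1 was higher and 5 lower, or 37.5% called, near the share of all genes, and under the covariate 3 were lower. Besides ABCA1 the lower genes included MYLIP, a ubiquitin ligase that degrades lipoprotein receptors, with a fall of 1.70 ± 0.15, the lysosomal cholesterol exporter NPC1, with a fall of 0.73 ± 0.11. Over the mean of probe sets 1 member of this list was lower, and MYLIP (-0.30) and NPC1 (-0.14) were not called.

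Mitosis genes fell, while DNA replication genes did not move as a group. Of 69 mitosis genes 2 were higher and 35 lower (19.8% of all genes were lower), with a median of -0.32. Many genes of late G2 and M phase are held off earlier in the cycle by the DREAM complex at CHR elements and need NF-Y at CCAAT boxes. The promoters of KIF14 and ASPM are shown because they hold both sets of letters, TTTGAA and CCAAT on either strand, marked in capitals, and both genes are described next.
KIF14 (chr1:200620702-200621001, minus strand): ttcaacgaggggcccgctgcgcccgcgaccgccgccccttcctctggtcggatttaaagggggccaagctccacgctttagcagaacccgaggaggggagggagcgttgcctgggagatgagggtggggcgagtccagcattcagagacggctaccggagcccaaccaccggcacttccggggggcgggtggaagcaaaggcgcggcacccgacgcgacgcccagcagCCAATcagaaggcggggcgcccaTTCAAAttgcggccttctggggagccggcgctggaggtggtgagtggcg
ASPM (chr1:197146620-197146919, minus strand): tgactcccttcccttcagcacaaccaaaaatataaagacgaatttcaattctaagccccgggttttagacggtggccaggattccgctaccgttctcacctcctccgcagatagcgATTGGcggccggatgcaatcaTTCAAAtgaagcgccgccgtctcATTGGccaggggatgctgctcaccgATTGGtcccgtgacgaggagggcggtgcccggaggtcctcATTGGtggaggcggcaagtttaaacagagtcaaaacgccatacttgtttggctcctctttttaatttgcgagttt
In KIF14 the CHR letters lie at 2 to 7 and the CCAAT box at -22 to -18. In ASPM the CHR letters lie at -113 to -108, among 4 CCAAT boxes. Of 59 tested mitosis genes with a window 40 held the CHR letters (67.8%), against 9.86% of tested genes and 15.4% of all genes with a window. Of those 40 genes 24 were lower with a median of -0.41, and of the other 19 genes 9 were lower with a median of -0.23. CCAAT was held by 44 of 59 (74.6%), against 36.5% of tested genes. The split by CCAAT went the other way from that by CHR. Of those 44 genes 23 were lower with a median of -0.35, and of the other 15 genes 10 were lower with a median of -0.45.

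KIF14, a kinesin of the cleavage furrow, was at 10.80, 10.87 and 10.75 before and at 9.26, 9.75 and 9.08 after, a fall of 1.44 ± 0.13 (adjusted p = 6.43e-07). ASPM, a spindle pole protein, went from 10.30, 10.13 and 10.22 to 9.09, 9.48 and 9.16, a fall of 0.97 ± 0.10. All control arrays were below all untransfected arrays for both genes, and control replicate 2 was the least changed. The checkpoint kinase BUB1B fell by 0.88 ± 0.11, the kinetochore protein NUF2 by 0.67 ± 0.09 and the kinetochore motor CENPE by 0.63 ± 0.08. For ASPM the mean over its 3 probe sets was -0.55 and just missed the threshold (adjusted p = 0.0516). Under the covariate for the 3' minus 5' signal 27 mitosis genes were lower, and leaving out 1 array gave 30 to 37. Without control replicate 2 there were 4 mitosis genes higher.

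Of 59 DNA replication genes 11 were higher and 8 lower, with a median of 0.07, and the 32.2% called was below the 38.0% of all genes. CCNE1, the cyclin that drives entry into S phase, was at 9.37, 9.37 and 9.28 before and at 10.02, 9.99 and 10.20 after, a rise of 0.73 ± 0.11. ORC1, an origin recognition subunit, rose by 0.95 ± 0.21 and RFC2, a clamp loader subunit, by 0.66 ± 0.14. E2F7, a repressor of E2F targets, fell by 1.00 ± 0.19 on its brightest probe set and the replication kinase CDC7 by 0.54 ± 0.12. The covariate left 3 higher and 1 lower, and ORC1 and CDC7 lost their calls. Without control replicate 3 there were 7 higher and 4 lower, without control replicate 1 there were 4 lower and without untransfected replicate 3 there were 5.

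Regulators of G1 changed in both directions: of 21 tested 5 were higher and 8 lower, or 61.9% called against 38.0% of all genes. Under the covariate 4 were lower, over the mean of probe sets 5 were, and without control replicate 3 there were 3 higher. CDC25A, the phosphatase that activates CDK2, went from 9.45, 9.36 and 9.40 to 10.31, 10.03 and 10.32, a rise of 0.81 ± 0.09. CCND2, a D-type cyclin, fell from 9.73, 9.87 and 9.89 to 8.41, 8.53 and 8.39, by 1.39 ± 0.12, and the activator E2F3 fell by 0.63 ± 0.10. CCNG2, an atypical cyclin of quiescent cells, was at 9.70, 9.75 and 9.65 before and at 8.21, 8.25 and 8.24 after. Its arrays were close within each group, and the fall was 1.47 ± 0.12 (adjusted p = 1.87e-07). Of 28 p53 targets 8 were higher and 6 lower (18.3% and 19.8% of all genes), with a median of 0.14. The share of members called was above the 38.0% of all genes. TP53I3, a quinone oxidoreductase, rose by 1.19 ± 0.13, PHLDA3, an inhibitor of AKT, by 0.99 ± 0.14 and the death receptor FAS by 0.75 ± 0.10, while the RNA-binding ZMAT3 fell by 0.92 ± 0.14. FAS was not called over the mean of its probe sets (0.26, adjusted p = 0.132).

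Genes that FOXO factors raise when growth factors are withdrawn were lower. Insulin and growth factor signalling through AKT keeps FOXO proteins out of the nucleus. Of 19 tested members 1 was higher and 11 lower (19.8% of all genes were lower), with a median of -0.77. FOXO1 itself went from 9.93, 10.08 and 9.86 to 8.62, 8.68 and 8.21, a fall of 1.45 ± 0.18 (adjusted p = 1.30e-05). SESN3, an inhibitor of mTORC1, fell from 9.13, 8.85 and 8.85 to 7.22, 7.61 and 6.89, by 1.70 ± 0.18. The adaptor IRS1 fell by 0.77 ± 0.12 and YPEL5, a ubiquitin ligase subunit, by 0.82 ± 0.13. Under the same covariate 8 members were lower and the median was -0.60, and over the mean of probe sets the median was -0.39.

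Of 20 feedback genes of ERK signalling 2 were higher and 8 lower, with a median of -0.32 (18.3% and 19.8% of all genes). The ETS factor ETV1 went from 8.79, 8.85 and 8.71 to 7.48, 7.31 and 7.54, a fall of 1.33 ± 0.11 with all 5 bright probe sets in that direction. ETV5, of the same family, fell by 0.79 ± 0.11, with 4 of its 5 bright probe sets lower. SPRED1, an inhibitor of RAS activation, fell by 0.84 ± 0.15, with 2 of its 3 bright probe sets lower. SPRY1, another inhibitor, fell to below the array median, by at least 0.77. HBEGF, a ligand of the EGF receptor, rose from 7.89, 7.88 and 7.89 to 8.78, 8.70 and 8.79, by 0.87 ± 0.12. The 3' minus 5' covariate left 3 members lower, and SPRY1 was not called (adjusted p = 0.103).

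Immediate early genes had a median of 0.00, with 4 of 23 higher and 5 lower, and the 39.1% called was near the 38.0% of all genes. ATF3, a stress-induced repressor, rose by 1.06 ± 0.12, with arrays that did not overlap. JUN and JUND, subunits of AP-1, fell by 0.47 ± 0.13 and 0.42 ± 0.09, and the growth regulator KLF6 by 0.72 ± 0.21 with overlapping arrays. Under the covariate 1 member was lower, and JUN (-0.28, adjusted p = 0.238) and KLF6 (-0.56, adjusted p = 0.183) were not called. Over the mean of probe sets 2 members were higher and 0 lower, and JUND and KLF6 changed by 0.07 and 0.06. Leaving out untransfected replicate 2 or 3 gave 3 lower, with 2 and 1 higher. Without control replicate 1, 2 or 3 there were 2, 8 or 1 lower, and without control replicate 3 there were 2 higher. Of 40 hypoxia and glycolysis genes 7 were higher and 11 lower (18.3% and 19.8% of all genes), or 45.0% called against 38.0%. MXI1, a MYC antagonist, fell from 8.48, 8.68 and 8.89 to 7.45, 7.53 and 7.24, by 1.28 ± 0.15. BNIP3L, a receptor for mitophagy, fell by 0.80 ± 0.13 and the oxygen sensor EGLN1 by 0.69 ± 0.12, while the stress-responsive NDRG1 rose by 0.67 ± 0.13. Under the covariate 3 were higher and 5 lower, and over the mean of probe sets 3 were lower, without EGLN1. Leaving out untransfected replicate 2 or 3 or control replicate 1 or 3 gave 4 higher each, with 7 or 8 lower.

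Genes for making ribosomes and for oxidative phosphorylation were higher or not called, while few ribosomal protein genes were called. Of 38 ribosome biogenesis and MYC target genes 17 were higher and 0 lower (18.3% of all genes were higher), with a median of 0.36. MRTO4, which assembles the stalk of the large subunit, went from 8.90, 8.57 and 8.56 to 9.55, 9.64 and 9.65, a rise of 0.93 ± 0.11. ODC1, which starts polyamine synthesis, rose by 0.82 ± 0.12 and the nucleolar LYAR by 0.86 ± 0.13. RRP12, which exports pre-ribosomes, rose by 0.98 ± 0.13, although over the mean of its probe sets it was not called (0.26, adjusted p = 0.0716). Under the covariate 12 were higher.

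Of 69 nuclear genes of oxidative phosphorylation 28 were higher and 0 lower (18.3% and 19.8% of all genes), with a median of 0.20. The complex I subunit NDUFS6 was at 12.12, 11.69 and 11.82 before and at 12.51, 12.66 and 12.76 after, a rise of 0.77 ± 0.11. Its partners NDUFA7 and NDUFS3 rose by 0.90 ± 0.13 and 0.60 ± 0.10. The covariate left 11 members higher at a median of 0.21, and leaving out 1 array gave 19 to 36. Of 52 cytosolic ribosomal protein genes 6 were higher and 0 lower (11.5% called, against 38.0% of all genes), with a median of 0.04. Under the covariate 2 were higher. Without control replicate 1 or 3 or untransfected replicate 2 or 3 there was 1, and without control replicate 2 there were 10. RPL36 rose by 0.48 ± 0.12, and RPL31 was higher by 0.21 ± 0.07 but changed by -0.07 over the mean of its probe sets.

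Of 47 extracellular matrix genes 7 were higher and 19 lower (18.3% and 19.8% of all genes), with a median of -0.22. LOXL4, which crosslinks collagen, went from 7.24, 6.83 and 6.89 to 5.46, 5.18 and 5.20, a fall of 1.71 ± 0.18. The transmembrane collagen COL13A1 fell by 1.36 ± 0.15 and PLAT, the tissue plasminogen activator, by 1.28 ± 0.16. MMP1, the interstitial collagenase, rose from 7.42, 7.17 and 7.21 to 8.89, 8.89 and 8.94, by 1.64 ± 0.17, beside the rise of MMP3. Under the 3' minus 5' covariate 12 matrix genes were lower. Of 5 tested fibroblast markers FAP, a surface protease, fell by 1.57 ± 0.16 and PDPN, podoplanin, by 0.78 ± 0.14.

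Of 37 genes that YAP and TGF-beta raise 10 were higher and 9 lower (51.4% called, against 38.0% of all genes), with a median of -0.09. IGFBP3, which binds insulin-like growth factors, was at 9.83, 9.64 and 9.64 before and at 11.65, 11.78 and 11.47 after, a rise of 1.93 ± 0.19. The matrix protein TGFBI rose by 0.75 ± 0.08. CCN2, a matricellular YAP target, fell from 11.08, 11.25 and 11.40 to 9.77, 10.33 and 9.63, by 1.33 ± 0.14. The secreted FSTL1 fell by 0.93 ± 0.10, with 2 of its 3 bright probe sets in that direction. Of 35 integrin and motility genes 2 were higher and 9 lower, and the 31.4% called was below the 38.0% of all genes. The actin regulators WASF3 and CFL2 fell by 1.37 ± 0.19 and 1.00 ± 0.16, and ITGA5, the fibronectin receptor chain, rose by 0.71 ± 0.12. CFL2 was not called over the mean of its probe sets (-0.30, adjusted p = 0.15), when 4 members were lower, and 5 were lower with the 3' minus 5' signal in the fit.

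Of 24 epithelial genes 0 were higher and 7 lower, with a median of -0.33, and the 29.2% called was below the 38.0% of all genes. TJP1, a tight junction scaffold, went from 11.78, 11.92 and 11.91 to 10.87, 11.00 and 10.65, a fall of 1.03 ± 0.10 on 1 of its 2 bright probe sets. OCLN, a tight junction membrane protein, fell by 0.80 ± 0.15 and the keratin KRT7 by 0.83 ± 0.17, both with all 4 bright probe sets lower. Of 18 genes of MHC class I and antigen processing 8 were higher and 2 lower (55.6% called), with a median of 0.39. The peptide transporter subunits TAP1 and TAP2 rose by 0.75 ± 0.13 and 0.42 ± 0.11, and HLA-E, a ligand of natural killer receptors, by 0.60 ± 0.15. CD274, the checkpoint ligand PD-L1, fell from 7.74, 7.97 and 8.07 to 7.08, 7.25 and 7.01, by 0.82 ± 0.20, a call lost with the 3' minus 5' signal in the fit (adjusted p = 0.218). In that fit and over the mean of probe sets 4 of the 18 were higher, and without control replicate 3 there were 5.

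The machinery that loads and uses small RNAs changed in both directions. Of 27 tested genes 8 were higher and 8 lower (59.3% called, against 38.0% of all genes), with a median of 0.04. TARBP2, a partner of Dicer, went from 6.95, 6.46 and 6.69 to 7.60, 7.56 and 8.03, a rise of 1.03 ± 0.15, on 1 of its 2 bright probe sets. AGO4, an Argonaute, fell from 7.78, 7.37 and 7.72 to 6.54, 6.74 and 6.61, by 0.99 ± 0.15, with all 3 bright probe sets lower. The helicase DDX5, a cofactor of Drosha, fell by 0.86 ± 0.10, TNRC6B, a scaffold of silencing, by 0.77 ± 0.14 and the decapping enzyme DCP2 by 0.68 ± 0.12. Of these, TARBP2, TNRC6B and DCP2 lost their calls over the mean of probe sets. Under the covariate and over the mean of probe sets 4 were higher and 5 lower, and without control replicate 3 there were 5 and 5.

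Among 16 clock genes 4 were higher and 3 lower (43.8% called, against 38.0% of all genes), and under the covariate 2 and 1. NPAS2, a partner of BMAL1, fell from 9.59, 9.69 and 9.82 to 7.97, 8.47 and 7.77, by 1.63 ± 0.17 with all 5 bright probe sets lower. The repressor CRY2 rose from 6.12, 5.95 and 6.11 to 7.21, 7.02 and 7.54, or 2.29-fold (adjusted p = 3.11e-05). Of 14 genes of the BCL2 family 3 were higher and 1 lower, a share of members called below that of all genes. BAK1, which permeabilises mitochondria, rose by 0.82 ± 0.12, and its activator BID by 0.69 ± 0.13. BCL2, which protects them, was lower by 1.03 ± 0.27, a call lost with the 3' minus 5' signal in the fit (adjusted p = 0.219).

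**Figure D3:**
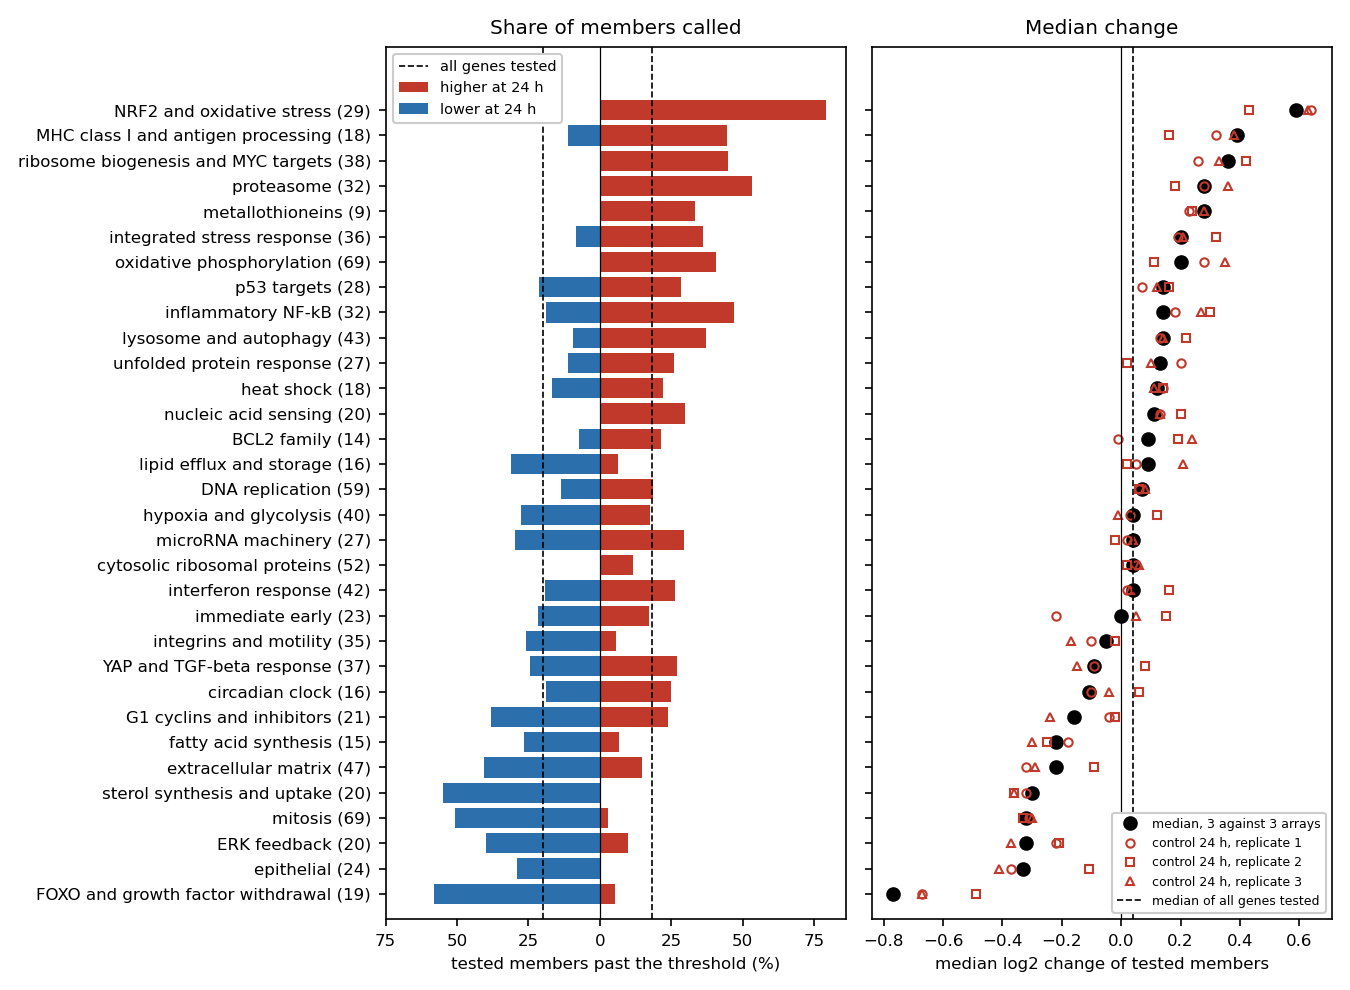
Left, percentage of the tested members of each gene list called higher (red, to the right) or lower (blue, to the left) in control cells at 24 h against untransfected cells, with the number tested in parentheses and dashed lines at the 18.3% and 19.8% of all genes. Right, the median log2 change of each list (black) and of each control array at 24 h against the mean of the untransfected arrays (red shapes). The NRF2 list has the highest median (0.59) and the FOXO list the lowest (-0.77) of the lists drawn, and in both all 3 arrays lie on the same side of 0.

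Most of the large changes were smaller or absent in control cells at 144 h. The comparisons below share the untransfected or the control arrays at 24 h, so their values are given side by side and do not support each other. Between control cells at 144 h and untransfected cells 61 genes were called (0.474%). The ACTB 3' minus 5' signal was 5.96, 6.94 and 6.68 in the control arrays at 144 h. These values lay above every untransfected array and overlapped those of the control arrays at 24 h. The mean signal of GAPDH and ACTB at 144 h was 3.38, 4.32 and 4.01, which overlapped both of those groups. The 168 genes called higher by at least 2-fold at 24 h had a median change of 1.16 at that time and 0.23 at 144 h. For the 437 called lower the medians were -1.22 and -0.33. Between 144 and 24 h in control cells 3131 genes were called (24.3%), and of the 168 and the 437 genes 161 and 361 were called back toward the untransfected level. HMOX1 was at 6.36, 6.46 and 6.35 and AKR1C1 at 7.28, 7.11 and 7.13 in the control arrays at 144 h. Of the NRF2 list 0 members were called at 144 h, with a median of 0.07, and of the mitosis list 0, with a median of 0.06. IL1B was still lower by 0.89 at 144 h (adjusted p = 0.00211), at 8.56, 8.56 and 8.25.

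Cells given mir-429 for 24 h had received the same reagent. Their own comparison with untransfected cells called 2966 genes (23.0%), with 11.7% of all genes higher and 11.3% lower. Over the 168 and 437 genes it had medians of 0.70 and -0.62. The NRF2 list had 21 members higher and 0 lower with a median of 0.55, the sterol list 0 higher and 6 lower, and the mitosis list 0 higher and 20 lower. AKR1C1 was at 9.96, 10.01 and 10.26 in these arrays. HMOX1 was at 7.22, 7.38 and 7.40, below every control array at 24 h and above every untransfected one, with a difference from control of -2.58 ± 0.23 (adjusted p = 5.61e-07). ABCA1 was at 6.97, 6.72 and 6.94, a difference from control of 0.80 ± 0.28 (adjusted p = 0.0413). Of the 24 epithelial genes 0 were higher and 7 lower in control cells at 24 h, and 8 were higher and 0 lower in mir-429 cells, each against untransfected cells. TJP1, lower by 1.03 in control cells, changed by 0.01 in mir-429 cells. The mean 3' minus 5' signal of GAPDH and ACTB was 2.54 to 3.25 in the mir-429 arrays at 24 h. It was 4.21 ± 0.21 (SD, n = 3) in the control arrays at 24 h and 3.15 ± 0.53 (SD, n = 3) in the untransfected arrays.

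**Figure D4:**
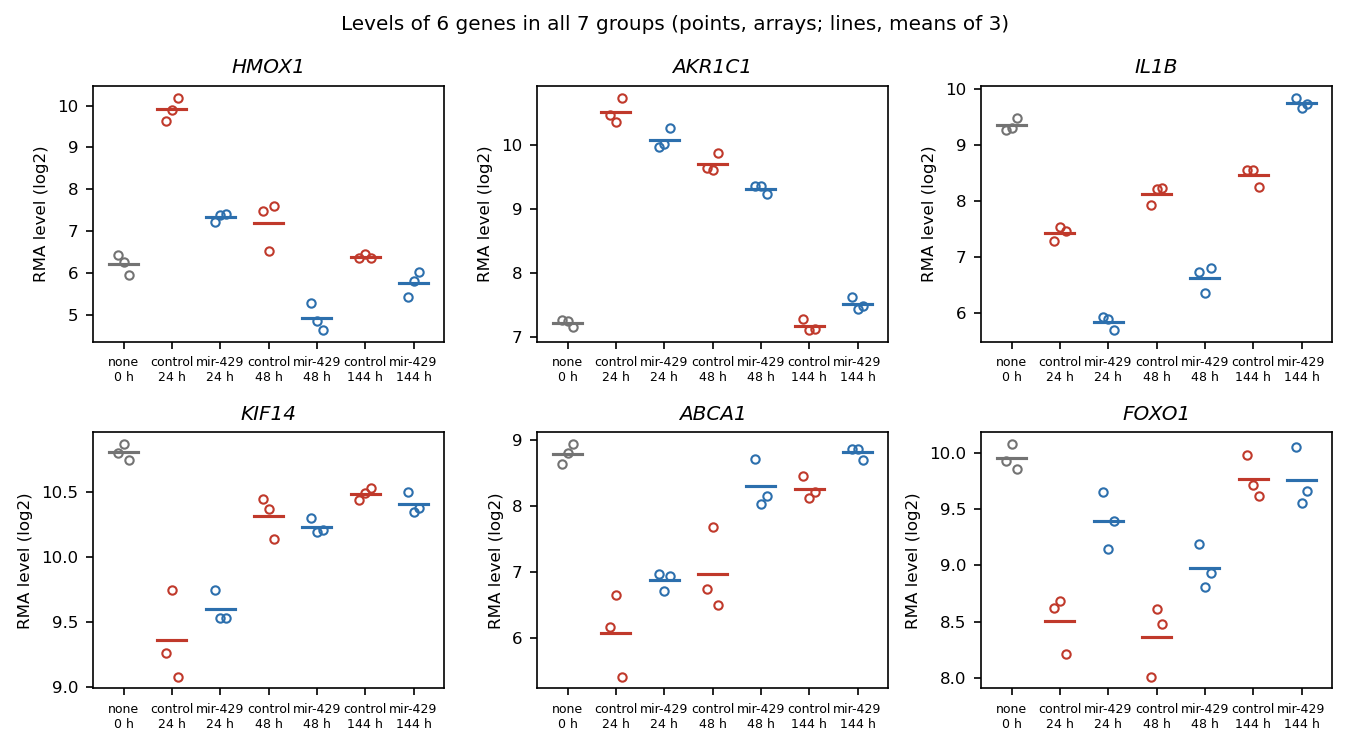
RMA level (log2) of HMOX1, AKR1C1, IL1B, KIF14, ABCA1 and FOXO1 in all 7 groups, with a point for each array and a line at the mean of 3 arrays. HMOX1 is near 10 only in the control arrays at 24 h, while AKR1C1 is above 9 in both arms at 24 and 48 h, and all 6 genes lie closer to the untransfected level at 144 h than at 24 h in control cells. The 48 h arrays of both arms had a far higher 3' minus 5' signal than all others.

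The size of the large falls differed between the control arrays. The median change of the 437 genes called lower by at least 2-fold was -1.27, -0.97 and -1.53 in control replicates 1, 2 and 3, each against the mean of the untransfected arrays. Replicate 3 was the furthest of the 3 in 318 of them and replicate 2 the nearest in 320. The 3' minus 5' signal of replicates 1, 2 and 3 was 6.89, 6.25 and 7.39 for ACTB, in the order of these falls. It was 1.11, 2.17 and 1.46 for GAPDH, and the mean of both was lowest in replicate 1, so neither of these followed that order. For the 168 genes called higher the medians were 1.15, 1.16 and 1.37. With the 3' minus 5' signal in the fit 358 of the 437 and 157 of the 168 were still called, against 1094 of all 2545 genes called lower and 960 of all 2352 called higher. Probe sets of a gene often disagreed as well. Among genes with at least 2 bright probe sets all of them moved the same way in 63.8% of 1236 genes called higher, 47.3% of 1625 called lower and 46.9% of 3781 not called.

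**Figure D5:**
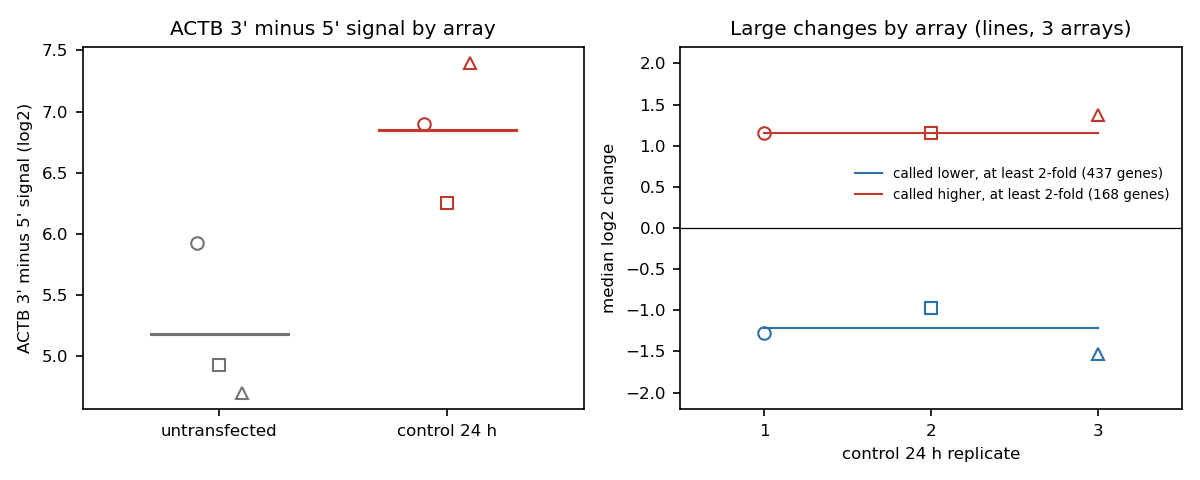
Left, ACTB 3' minus 5' signal (log2) of each untransfected array (grey) and each control array at 24 h (red), with lines at the group means. Right, median log2 change of the 437 genes called lower (blue) and the 168 called higher (red) by at least 2-fold in each control array at 24 h, with lines at the value from all 3 arrays. The falls are largest in replicate 3 (-1.53) and smallest in replicate 2 (-0.97).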

How the data were processed

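Total RNA was amplified from its 3' end (NuGEN Applause 3'-Amp) and hybridised to Affymetrix arrays of 54675 probe sets. The deposited values are log2 levels made by the authors with RMA, per the submitters' processing notes. Its version is not given in the sources used here. Of the probe sets 41097 name 1 gene symbol in GEO's platform annotation, 1801 several and 11777 none. Probe sets with 1 symbol gave 19775 genes, each represented by its probe set with the highest mean. Genes above the array median on at least 3 arrays were tested, which set 6896 aside.

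limma 3.58.1 in R 4.3.3 fitted means of 7 groups to all 21 arrays (lmFit, eBayes, 14 residual degrees of freedom), with Benjamini-Hochberg adjustment over 12879 genes. The script was tested on simulated data. Values below the array median on average in a group give bounds. The 3' minus 5' signal is that of the GAPDH and ACTB control probe sets. The number of arrays limits the precision.

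The 36 gene lists were written by hand and, like the comparison, were chosen with earlier results of these data known. Genes named are the 12 largest rises and 12 largest falls whose groups do not overlap, and up to 5 called members of each list with the smallest p. Exceptions are stated. Motifs were searched as letters on both strands of RefSeq promoter windows (GRCh38.p14). Alternatives changed the probe set rule, filter, scaling, arrays fitted, array weights, prior, least change, a replicate block and a covariate for the 3' minus 5' signal, and left out each array. Replicate numbers did not pair the samples: same-numbered arrays of both groups correlated at -0.37, -0.25 and -0.02 in their deviations from the group means.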

Additional observations from a re-analysis of the deposited data

Results flagged for a closer look

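Between control cells at 144 and 24 h 3131 genes differed by limma, and between cells given mir-429 and cells given the control miRNA, both at 24 h, 3425 genes differed (26.6%). Of the 12 largest rises 7 and of the 12 largest falls 6 were called in the latter comparison. Among the rises the difference (mir-429 minus control, log2) was -2.58 for HMOX1, -1.07 for TNIP3 and -1.40 for LINC00520. For ENPP2 it was -1.44. ENPP2 was below the array median with mir-429 (mean 3.38) and in untransfected cells (mean 2.56), so the size of its difference is not measured. Among the falls it was 2.41 for LMBR1, 1.28 for PELI2 and 1.29 for CAVIN2. LMBR1 was below the array median in control replicates 1 and 3 at 24 h, so its difference is not well measured. Apart from ENPP2, the mean of each of these genes lay nearer to its untransfected level with mir-429 than with the control miRNA. The genes were chosen by their change in the same control arrays, and those named here also by the size of this difference. Their nearness to the untransfected level is therefore no separate result. The control arrays at 24 h also had the higher 3' minus 5' signal, and its part in these differences was not tested.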

How the results depend on the processing

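The number of genes called against untransfected cells moved by over 1.5 times from 4897 in 3 settings. It was 7353 with array weights (3720 higher), 2118 with the 3' minus 5' covariate (988 higher, 1130 lower) and 1824 against a 1.2-fold change (764 higher, 1060 lower). The last asks for a larger change, and the cause of the others was not tested. Leaving out 1 array gave 3483 to 5257 genes, 1680 to 2358 higher and 1746 to 2899 lower. For control cells at 144 against 24 h it gave 2017 (without control replicate 3 at 24 h) to 3808. With the replicate number as a block 4859 genes were called, and 3089 between 144 and 24 h. A fit of only the 6 arrays compared called 4299 genes, and a fit without the 48 h arrays called 5653. Higher genes made up 41.9% to 52.4% of calls over these settings, against 48.0%. Of 176 named genes 147 kept their call with the covariate. Over the mean of probe sets 133 did and 5 turned: JUND 0.07, KLF6 0.06, CALR -0.13, RPL31 -0.07 and PSMA5 -0.01. GAPDH alone gave a 3' minus 5' difference of 0.45 and ACTB alone 1.67, against 1.06 for their mean.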

Other observations

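In addition, 7 genes linked to BMP and SMAD signalling were looked at after values had been seen. They are no fixed list and are given as single values. BAMBI, a decoy receptor for TGF-beta family ligands, was at 6.48, 6.31 and 6.27 in untransfected arrays and at 8.28, 8.22 and 8.20 in control arrays at 24 h, a rise of 1.88 ± 0.12 (limma adjusted p = 1.41e-08). ID3, an inhibitor of helix-loop-helix factors and a known BMP target, went from 6.65, 6.53 and 6.93 to 8.19, 8.47 and 8.25, a 3.02-fold rise (limma adjusted p = 6.72e-07). The related ID1 rose by 1.68 ± 0.32 and the inhibitory SMAD7 by 0.68 ± 0.13. SMAD6, another inhibitor, changed by 0.36 and was not called (limma adjusted p = 0.0836). The ligand BMP2 fell by 0.49 ± 0.11, and the ligand BMP4 changed by 0.10 and was not called (limma adjusted p = 0.751).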
